A study of Mus musculus with 8 samples.

Results

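The genes examined here were the Lgr4, Lgr5 and Lgr6 receptors and their secreted ligands, the R-spondins Rspo1, Rspo2, Rspo3 and Rspo4. They were selected by symbol, as 7 of the 50578 genes in the count table. The selection used no expression value, but the family was proposed with earlier results of these data known. Therefore, the changes of its members from untreated cells are given as a description of these libraries, with the calls of the fit over all genes and no p-value of their own.

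RNA-seq was performed on wild-type mouse embryonic fibroblasts (MEFs), primary cells used at early passage and made from C57BL/6J embryo carcasses without head, appendages or viscera. Untreated MEFs were set against MEFs kept at 10 µM in 1 of 3 compounds, and each of the 4 groups had 2 libraries. CHIR-99021 blocks GSK3, the kinase that marks beta-catenin for destruction. LY-364947 is an inhibitor of the TGF-beta type I receptor kinase, and carbidopa is an inhibitor of the enzyme that decarboxylates aromatic amino acids. The question was whether compounds predicted to push fibroblasts towards a hepatic fate did so, and the labels call the treated cells hepatic-like. LY-364947 is spelled LY-364747 in the labels. Neither the labels nor the study's methods give the length of treatment for these libraries, a vehicle, or whether the untreated cells were cultured for the same time, so treatment and time in culture cannot be told apart. They also do not say whether libraries of a group came from separate cultures, so the spread between them may be technical.

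Total counts per library ranged from 15039566 to 20504338. Levels are given as CPM, read counts scaled to a common library total of 1000000 with TMM factors. The pair of carbidopa libraries stood farthest apart, with a chi-square per degree of freedom of 37.9 against 4.57 to 10.0 for the other pairs. The labelled cell types were checked against marker lists. The summed level of 10 fibroblast markers, led by Col1a1 and Dcn, was 15924 to 16163 CPM in MEFs and 5952 to 8141 CPM in treated cells. In each treatment 8 of the 10 were called lower and 1 higher, beside 17.2% to 20.1% and 13.7% to 18.7% of all genes. Dcn itself was at 1712 CPM in MEFs, 1944 after carbidopa, 1848 after LY-364947 and 1094 after CHIR-99021. Pdgfra, chosen for mention after its values were seen, was at 251, 351, 323 and 390 CPM in the same order. Of the 8 hepatocyte and progenitor markers, 1 (Krt18) passed the filter on low counts, and Serpina1a had no read in any library. Alb had 2 and 0 reads in MEFs and 5 to 10 in the treated libraries. Hnf4a had 1 and 2 reads in MEFs and 6 to 10 in the treated libraries. Both were below the filter and were not tested. The summed level of the 8 markers was 0.669 to 0.903 CPM in MEFs, 1.93 to 2.14 after carbidopa, 1.96 to 1.97 after LY-364947 and 3.51 to 4.001 after CHIR-99021. Krt18 was called higher after CHIR-99021 (log2 fold change 2.37). It had 5 and 10 reads in MEFs and passed the filter only through treated libraries. Its call thus follows in part from the filter, and nothing is read from it.

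R-spondins amplify Wnt signalling. An R-spondin bridges an LGR receptor and the membrane E3 ligases ZNRF3 or RNF43, which otherwise remove Frizzled receptors from the cell surface, and clearance of the ligase leaves more Frizzled and LRP co-receptor for Wnt. Lgr5 is best known as a stem cell marker of the gut and hair follicle and is itself a Wnt target, while Lgr4 is more widely expressed and Lgr6 marks stem cells of the skin.

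RefSeq promoter sequences (GRCm38, also called mm10) were found for 4 of the 7 genes, Lgr4, Lgr6, Rspo1 and Rspo4, and not for Lgr5, Rspo2 and Rspo3. The windows of Lgr4 and Lgr6 are shown because the transcripts of these genes moved in opposite directions in all 3 treatments. The Lgr4 window covers chr2:109917397-109917646 on the plus strand, the 250 bases before the annotated start. The Lgr6 window covers chr1:135105375-135105526 on the minus strand, bases 250 to 99 before the start. Both are written 5′ to 3′ with CCAAT boxes in capitals, searched on both strands as CCAAT.
Lgr4: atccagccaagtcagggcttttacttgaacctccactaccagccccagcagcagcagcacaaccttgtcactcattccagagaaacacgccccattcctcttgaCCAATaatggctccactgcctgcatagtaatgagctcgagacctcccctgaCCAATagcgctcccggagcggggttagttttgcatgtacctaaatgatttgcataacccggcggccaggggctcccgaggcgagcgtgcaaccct
Lgr6: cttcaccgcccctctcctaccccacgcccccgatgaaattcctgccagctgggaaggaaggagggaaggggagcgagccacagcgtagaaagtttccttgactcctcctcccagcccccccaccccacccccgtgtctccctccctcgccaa
The Lgr4 window held 2 CCAAT boxes and the full 250-base window of Lgr6 held 0. Of the 32851 promoters of the same length, 33.8% held 1 or more such boxes. CTTTGAT (the TCF/LEF core, in 3.21% of all promoters) and TATAAA (the TATA box, in 12.4%) were also searched on both strands, and neither occurred in the 4 promoters found. The GC content was 55.6% for Lgr4 and 65.2% for Lgr6, against a median of 52.4% over all promoters. These matches describe the letters of the windows and are not evidence of binding.

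Of the 7 genes, 6 passed the filter and Rspo1 did not. Rspo4 passed it only through the carbidopa and LY-364947 libraries, where it is high, so its calls below follow in part from the filter and nothing is read from them. After carbidopa, 2 members (Lgr6 and Rspo4) were called higher and 3 lower than in MEFs, where 18.0% of the 15154 genes tested were called higher and 19.7% lower, 37.7% in all. After LY-364947 the members again divided into 2 higher and 3 lower, beside 13.7% and 17.2% of all genes, 31.0% in all. After CHIR-99021, 1 member was higher and 3 were lower, beside 18.7% and 20.1% of all genes, 38.8% in all. A call is a Benjamini-Hochberg adjusted p under 0.05 in edgeR's quasi-likelihood test over all genes. The carbidopa count was 5 without carbidopa replicate 1 and 4 without replicate 2. Leaving out MEF replicate 2 brought the carbidopa and LY-364947 counts to 3 each, and leaving out LY-364947 replicate 1 brought the latter to 3. Thus, Lgr4 and Lgr5 fell and Lgr6 rose in every treatment, Rspo2 fell in every treatment, and Rspo3 was called in none.

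**Figure D1:**
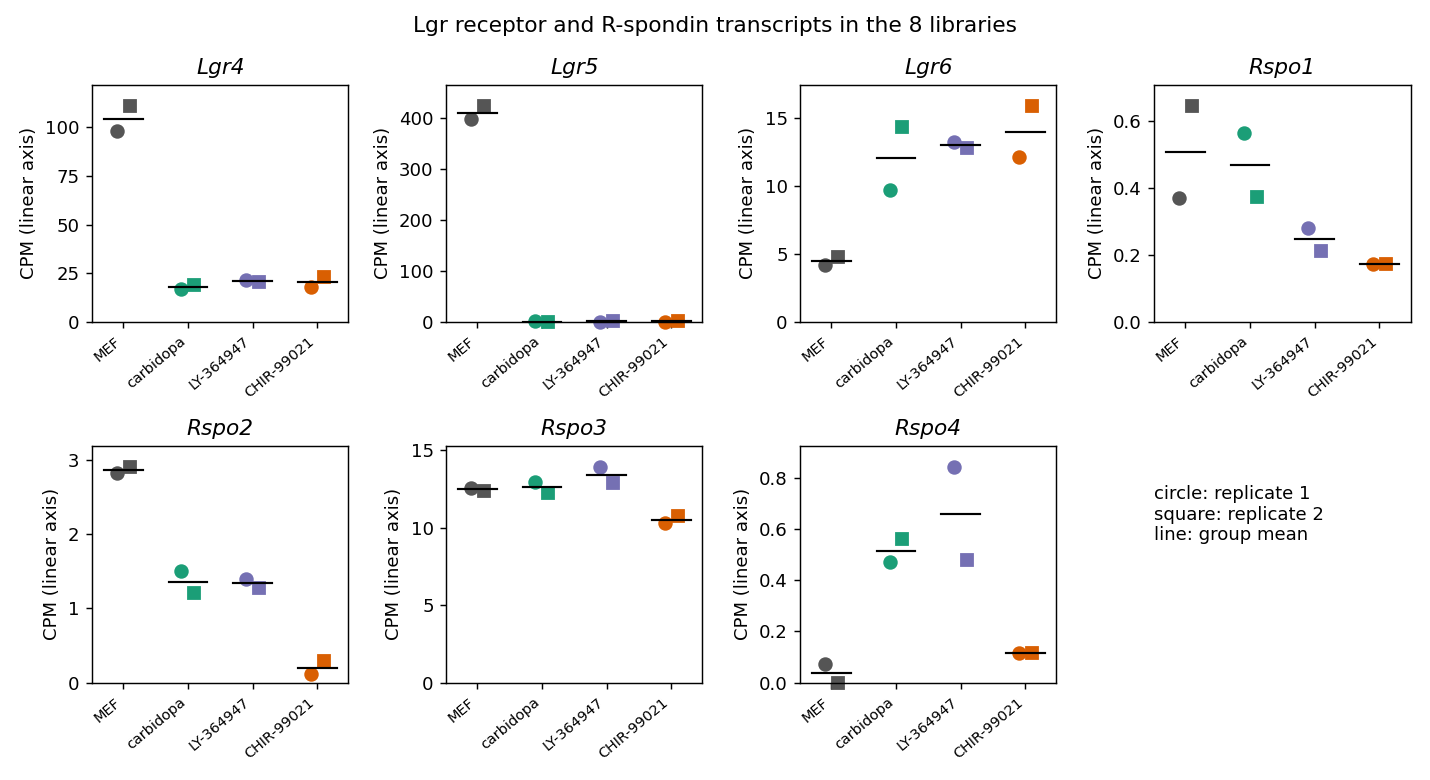
CPM of each of the 7 genes (vertical axes, linear and starting at 0, with a separate scale for each gene) in the 4 groups. Circles and squares are replicates 1 and 2 and the line is the group mean, and Lgr5 is between 397 and 422 CPM in MEFs against at most 1.04 CPM in the treated libraries.

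Lgr5, a 7-transmembrane receptor for R-spondins, lies at chr10:115450311-115587780 on the minus strand (ENSMUSG00000020140). It had 5347 and 6550 reads in MEFs, 13 and 11 after carbidopa, 9 and 18 after LY-364947, and 9 and 18 after CHIR-99021. Both MEF libraries were thus far above all 6 treated libraries, and the treated groups overlapped each other. The mean level was 410 ± 17.7 CPM in MEFs (SD, n = 2). It was 0.562 ± 0.0699 CPM after carbidopa, 0.731 ± 0.320 CPM after LY-364947 and 0.781 ± 0.372 CPM after CHIR-99021 (SD, n = 2 each). The transcript was therefore abundant in the untreated cells and near the detection limit after any of the compounds. The log2 fold change was -9.49 (SE 0.23) after carbidopa, -9.11 (SE 0.23) after LY-364947 and -9.02 (SE 0.23) after CHIR-99021. Among all tested genes that were lower than in MEFs, ordered by the size of the log2 fold change, Lgr5 stood at rank 4 after carbidopa, at rank 4 after LY-364947 and at rank 6 after CHIR-99021. Without one or the other carbidopa library the change after carbidopa was -9.62 or -9.37. Because these are bulk libraries, fewer cells carrying a transcript and less transcript per cell cannot be told apart, here and below.

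Lgr4, the broadly expressed receptor of the family, lies at chr2:109917647-110014257 on the plus strand (ENSMUSG00000050199). It had 1323 and 1717 reads in MEFs, 356 and 411 after carbidopa, 385 and 386 after LY-364947, and 315 and 400 after CHIR-99021. The MEF libraries were again above every treated library. Mean levels were 104 ± 8.77 CPM in MEFs, 18.0 ± 1.70 CPM after carbidopa, 21.1 ± 0.743 CPM after LY-364947 and 20.7 ± 3.59 CPM after CHIR-99021 (SD, n = 2 each). The log2 fold change was -2.54 (SE 0.14), -2.31 (SE 0.14) and -2.34 (SE 0.14) in the same order of treatments. Lgr4 thus fell less than Lgr5 and stayed readily detected in every treated library.

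Lgr6 moved the other way. The gene lies at chr1:134983301-135105276 on the minus strand (ENSMUSG00000042793). It had 56 and 74 reads in MEFs, 206 and 308 after carbidopa, 236 and 240 after LY-364947, and 211 and 273 after CHIR-99021. Every treated library was above both MEF libraries, while the treated groups overlapped. Mean levels were 4.47 ± 0.431 CPM in MEFs, 12.0 ± 3.30 CPM after carbidopa, 13.0 ± 0.328 CPM after LY-364947 and 14.0 ± 2.61 CPM after CHIR-99021 (SD, n = 2 each). The log2 fold change was 1.42 (SE 0.23), 1.54 (SE 0.23) and 1.64 (SE 0.23) in that order. The carbidopa change was 1.68 without carbidopa replicate 1 and 1.11 without replicate 2.

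Since Lgr6 is known from skin, keratinocyte markers are given beside it. The summed level of 8 such markers, led by Krt10 and Krt1, was 1.29 to 1.56 CPM in MEFs and 12.6 to 14.3 CPM after carbidopa. It was 1.17 to 2.19 CPM after LY-364947 and 1.91 to 2.65 CPM after CHIR-99021. All 4 of the 4 tested markers were called higher after carbidopa, beside 18.0% of all genes, and 0 of 4 after either other compound. However, Krt1 (58 and 91 reads), Krt5 (16 and 30) and Krt14 (18 and 78) passed the filter only through the carbidopa libraries, where they are high. Their calls thus follow in part from the filter, and nothing is read from them. Krt10 had 19 and 18 reads in MEFs and 170 and 102 after carbidopa. In the LY-364947 libraries Krt1, Krt5, Krt14, Trp63 and Dsg3 had 0 reads, while Krt10 had 35 and 20, Cdh1 had 2 and 2, and Krt15 had 2 and 0. The part of such cells in the Lgr6 values was not tested.

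**Figure D2:**
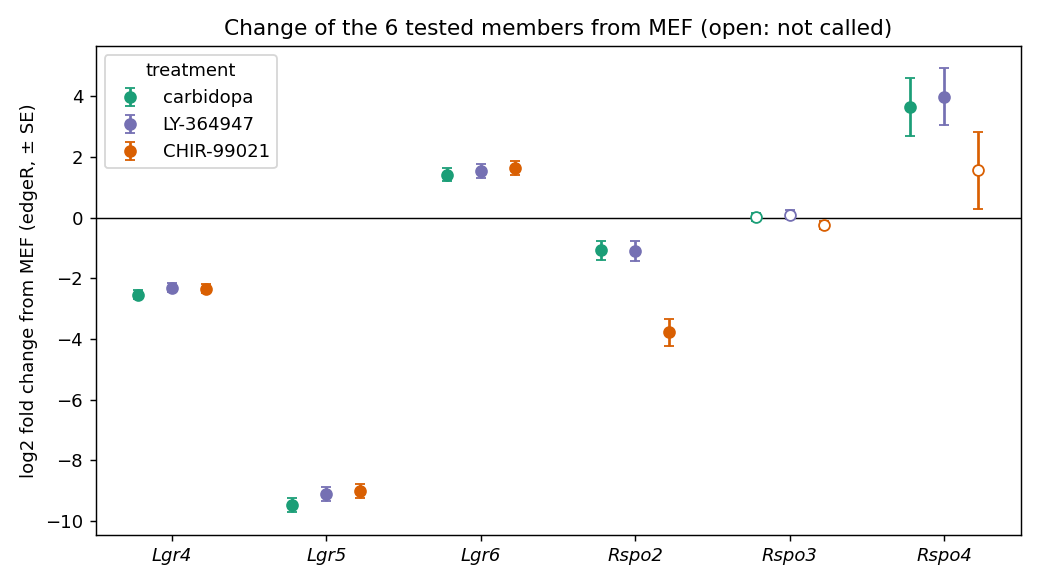
Log2 fold change from MEF (vertical axis, edgeR estimate ± SE) for the 6 tested members in each treatment. Filled points passed the adjusted p threshold and open points did not, and Lgr4, Lgr5 and Lgr6 have nearly the same value in all 3 treatments while Rspo2 is lower after CHIR-99021 (-3.78) than after carbidopa (-1.07) or LY-364947 (-1.09).

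The 3 receptors were compared with each other per length, as CPM per kb of exon. Their summed level was 58.3 ± 3.28 CPM per kb in MEFs, 4.86 ± 0.764 after carbidopa, 5.55 ± 0.143 after LY-364947 and 5.63 ± 1.03 after CHIR-99021 (SD, n = 2 each). The make-up of that sum changed together with its size. Lgr5 made up 68.5% of it in MEFs and 1.15% to 1.31% in the treated groups. Lgr4 made up 30.4% in MEFs and 62.4% to 64.5% after treatment, and Lgr6 1.12% and 34.2% to 36.3%. Therefore, the order per length was Lgr5, Lgr4, Lgr6 in MEFs and Lgr4, Lgr6, Lgr5 in each treated group, and neighbours in these orders did not overlap between libraries of a group.

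**Figure D3:**
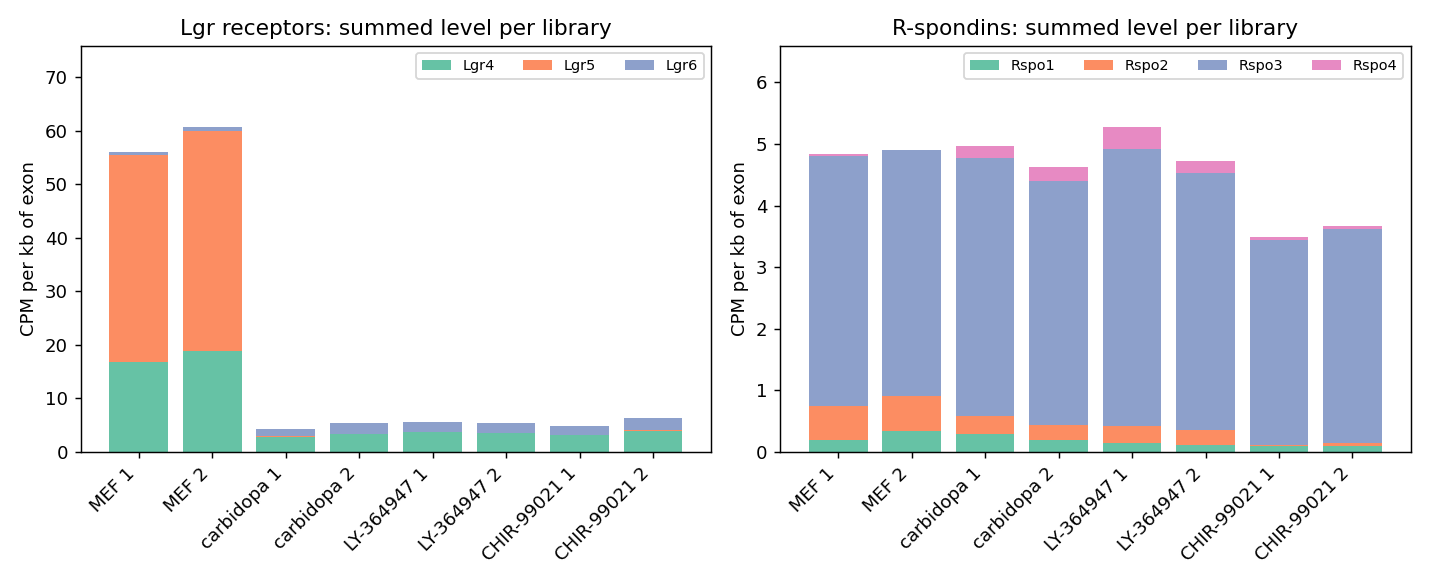
Stacked level in CPM per kb of exon (vertical axes starting at 0) of the 3 Lgr receptors, left, and the 4 R-spondins, right, in each of the 8 libraries. The receptor sum is 56.0 and 60.7 in MEFs and 4.32 to 6.35 in treated libraries, while the R-spondin sum is 3.49 to 5.27 in all libraries and mostly Rspo3.

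Among the ligands, Rspo3 was the most abundant per length in every library. R-spondin 3 is known for its roles in placental and vascular development. The gene lies at chr10:29452416-29535867 on the minus strand (ENSMUSG00000019880) and shares 404 exon bases with the antisense gene Gm48159, which had 0 reads. It had 169 and 192 reads in MEFs, 275 and 263 after carbidopa, 248 and 242 after LY-364947, and 179 and 185 after CHIR-99021. After scaling for depth the mean levels were 12.5 ± 0.126 CPM in MEFs, 12.6 ± 0.479 after carbidopa, 13.4 ± 0.729 after LY-364947 and 10.5 ± 0.304 after CHIR-99021 (SD, n = 2 each). The log2 fold change was 0.015 (SE 0.13), 0.10 (SE 0.14) and -0.25 (SE 0.14), and none was called. The CHIR-99021 libraries were nevertheless the lowest of all 8. Rspo3 made up 82.8% of the R-spondin sum per length in MEFs, 84.9% after carbidopa, 86.7% after LY-364947 and 95.04% after CHIR-99021.

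Rspo2 separated CHIR-99021 from the other compounds. R-spondin 2 is needed for limb and lung development, and its gene lies at chr15:43020794-43170826 on the minus strand (ENSMUSG00000051920). It had 38 and 45 reads in MEFs, 32 and 26 after carbidopa, 25 and 24 after LY-364947, and 2 and 5 after CHIR-99021. Libraries fell into MEFs, then carbidopa and LY-364947 together, then CHIR-99021, without overlap between these levels. Mean levels were 2.86 ± 0.0551 CPM in MEFs, 1.36 ± 0.207 after carbidopa, 1.34 ± 0.0883 after LY-364947 and 0.202 ± 0.124 after CHIR-99021 (SD, n = 2 each). The log2 fold change from MEF was -1.07 (SE 0.32), -1.09 (SE 0.33) and -3.78 (SE 0.44), and all 3 were called. The calls after carbidopa and LY-364947 were lost with DESeq2 in place of edgeR, where the log2 fold changes were -1.10 and -1.12, and with library totals alone (-0.82 and -0.87). The carbidopa call was also lost without MEF replicate 1 (-1.09) or 2 (-1.06) or carbidopa replicate 2 (-0.92), and the LY-364947 call without any 1 of the MEF and LY-364947 libraries (-1.16 to -1.03). The call after CHIR-99021 held in every alternative that kept the gene.

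The differences between treatments were tested in the same fit. For CHIR-99021 against carbidopa, 1 member was called lower, Rspo2 with a log2 difference of -2.71 (SE 0.47), where 6.62% of all genes were called higher and 8.08% lower, 14.7% in all. For CHIR-99021 against LY-364947, 2 members were called lower, Rspo2 at -2.69 (SE 0.48) and Rspo4 at -2.44 (SE 0.71, with the limit from the filter given above), where 6.45% of all genes were called higher and 7.69% lower, 14.1% in all. Without CHIR-99021 replicate 1, which had the 2 Rspo2 reads, the Rspo2 differences were -2.20 and -2.18 and neither was called. The Rspo4 call had no adjusted p with DESeq2 (NA), and was lost with no filter, with the replicate block, and without any 1 of the MEF, CHIR-99021 and LY-364947 libraries (-2.79 to -1.99). For LY-364947 against carbidopa, 0 of 6 members were called by edgeR (0 at an unadjusted p under 0.05) and 0 by DESeq2, where 0.0132% of all genes were called higher and 0.00% lower. Lgr4, Lgr5 and Lgr6 were called in none of these comparisons. The largest difference of a receptor between treatments was 0.47 (SE 0.41), for Lgr5 after CHIR-99021 against carbidopa. Without carbidopa replicate 2, the Lgr6 difference between CHIR-99021 and carbidopa went from 0.22 to 0.53 and was called.

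Macrophage markers, like Rspo2, were highest in MEFs and lowest after CHIR-99021. The summed level of 8 such markers, led by Lyz2 and Cd68, was 1001 to 1040 CPM in MEFs, 296 to 309 after carbidopa, 222 to 226 after LY-364947 and 72.7 to 81.1 after CHIR-99021. Of the 8 markers, 7 were called lower after carbidopa, 7 after LY-364947 and 8 after CHIR-99021. Beside these, 19.7%, 17.2% and 20.1% of all genes were called lower, in the same order. No marker of the list was at 0 in any library. Their part in the Rspo2 values was not tested.

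**Figure D4:**
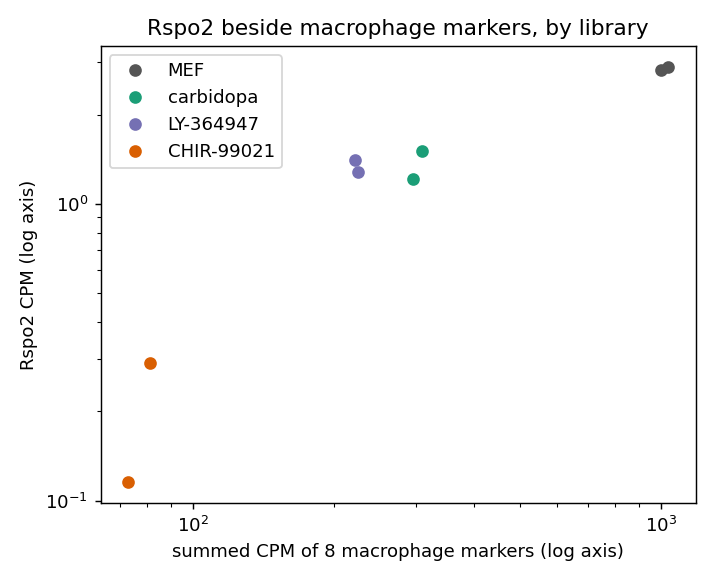
Rspo2 level (vertical axis, CPM, log scale) against the summed level of 8 macrophage markers (horizontal axis, CPM, log scale), with 1 point for each of the 8 libraries. The MEF libraries are highest on both axes and the CHIR-99021 libraries, at 0.115 and 0.290 CPM of Rspo2, lowest on both.

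Rspo4 was the rarest ligand per length in MEFs. R-spondin 4 is known for nail development, and its gene lies at chr2:151842927-151874668 on the plus strand (ENSMUSG00000032852). It had 1 and 0 reads in MEFs, 10 and 12 after carbidopa, 15 and 9 after LY-364947, and 2 and 2 after CHIR-99021. The 4 libraries of carbidopa and LY-364947, through which alone it passed the filter, were above the MEF and CHIR-99021 libraries. As a ratio of pooled reads per effective library size, carbidopa over MEF was 14.9 (95% exact interval 2.41 to 616) and LY-364947 over MEF was 19.0 (3.10 to 781). The same ratio for CHIR-99021 over MEF was 3.35 (0.331 to 165), an interval that includes no change. These intervals cover counting error only. The fitted log2 fold changes, which depend on the prior count and on that filter, were 3.65 (SE 0.96, called) after carbidopa, 3.997 (SE 0.94, called) after LY-364947 and 1.56 (SE 1.28, not called) after CHIR-99021. Without MEF replicate 2, the library with 0 reads, those of carbidopa and LY-364947 were 2.68 and 3.03 and neither was called. The LY-364947 call was also lost without LY-364947 replicate 1 (3.55). With DESeq2 the LY-364947 change was not called and the carbidopa change had no adjusted p (NA).

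Rspo1 was near the limit of detection throughout and was not tested. R-spondin 1 is known from ovary development and as a growth factor for intestinal epithelium, and its gene lies at chr4:124986430-125009099 on the plus strand (ENSMUSG00000028871). It had 5 and 10 reads in MEFs, 12 and 8 after carbidopa, 5 and 4 after LY-364947, and 3 and 3 after CHIR-99021. MEF and carbidopa libraries overlapped, and both CHIR-99021 libraries were below all others. The pooled ratio of CHIR-99021 over MEF was 0.335 (95% exact interval 0.106 to 0.913), that of LY-364947 over MEF 0.475 (0.183 to 1.16) and that of carbidopa over MEF 0.904 (0.440 to 1.90). Mesothelial markers are given beside these genes. The summed level of 8 such markers, of which Krt19 and Upk1b had most reads, was 65.4 to 70.1 CPM in MEFs and 16.5 to 29.2 CPM in treated libraries. In each treatment 6 of 8 were called lower, beside 17.2% to 20.1% of all genes. The number called higher was 2 after carbidopa, 2 after LY-364947 and 1 after CHIR-99021, beside 13.7% to 18.7% of all genes. Krt19 was among those called higher in each, from 2.76 CPM in MEFs to 15.3, 9.37 and 7.04 CPM in that order. Muc16, named for this limit, passed the filter only through the MEF libraries, where it is high (84 and 98 reads, against 1 to 4 in treated libraries). Its calls thus follow in part from the filter, and nothing is read from them. No mesothelial marker was at 0 in any library, and their part in the Lgr and R-spondin values was not tested.

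The partners of these receptors and ligands were then examined in 5 lists of 68 genes, of which 61 were tested. After carbidopa, 13 were called higher and 22 lower, with a median log2 fold change of -0.25 against 0.037 over all genes, of which 37.7% were called. After LY-364947, 15 were higher and 19 lower (median -0.17 against 0.028, 31.0% of all genes called), and after CHIR-99021 15 were higher and 19 lower (median -0.11 against 0.043, 38.8% called). The lists were chosen with earlier results of these data known. The counts of each list below stand beside these same shares, and nothing particular to a list is read from them.

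ZNRF3 and RNF43 are the ligases that R-spondins clear. Znrf3 was at 13.9 ± 0.363 CPM in MEFs, 10.9 ± 1.75 after carbidopa, 12.3 ± 0.533 after LY-364947 and 16.1 ± 0.645 after CHIR-99021 (SD, n = 2 each), and was called against MEF in none. It was called lower after carbidopa without carbidopa replicate 2 (log2 fold change -0.52) and higher after CHIR-99021 with library totals alone (0.43). The difference between CHIR-99021 and carbidopa was called for Znrf3 (log2 difference 0.57, adjusted p = 0.0295, edgeR). Rnf43 was rarer, at 0.198 ± 0.175 CPM in MEFs and 1.07 ± 0.117 CPM after CHIR-99021. It had 1 and 5 reads in MEFs and passed the filter only through treated libraries. A call of Rnf43 thus follows in part from the filter, and nothing is read from it. Its rise after CHIR-99021 was called (log2 fold change 2.34, adjusted p = 0.0254, edgeR), but not with DESeq2 (adjusted p = 0.0668), without MEF replicate 1 (0.167) or without CHIR-99021 replicate 1 (0.119) or 2 (0.0678). The list of these ligases, the Frizzled receptors and the LRP co-receptors had 3 of 13 tested genes higher and 3 lower after carbidopa, 5 and 2 after LY-364947, and 5 and 2 after CHIR-99021.

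Of the Wnt receptors, Fzd7 rose from 140 ± 5.06 CPM in MEFs to 396 ± 18.4 after carbidopa, 393 ± 15.4 after LY-364947 and 461 ± 26.0 after CHIR-99021. Fzd1 also rose in all 3 treatments, by log2 fold changes of 1.34, 1.30 and 1.77. Fzd2 fell by 1.30, 1.36 and 1.07 on the log2 scale. The Frizzled genes thus divided, as the Lgr genes did. Fzd6 was called higher after LY-364947 (0.55) and CHIR-99021 (0.95) and had a value of 0.38 after carbidopa, which passed with library totals alone (0.63) and without carbidopa replicate 1 (0.42). The LY-364947 call was lost without MEF replicate 1 (0.44) or LY-364947 replicate 2 (0.52). Of the co-receptors, Lrp5 was called higher after CHIR-99021 (0.69, adjusted p = 0.000847, edgeR) and LY-364947 (0.34, adjusted p = 0.0447), the latter lost with DESeq2, RLE and the replicate block and without any 1 of the MEF, CHIR-99021 and LY-364947 libraries (0.25 to 0.42). Its value after carbidopa was 0.097, and 0.35 and called with library totals alone. Lrp6 was called lower after carbidopa (-0.47), a call lost without MEF replicate 1 (-0.53) or 2 (-0.41), with library totals alone (-0.22) and with only the compared groups (-0.47). Its value was -0.71 without carbidopa replicate 2 and -0.26 without replicate 1. After LY-364947 it was -0.14, and after CHIR-99021 it was -0.30, which passed with only the compared groups (-0.31) and without either carbidopa library (-0.30 and -0.29).

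Heparan sulfate proteoglycans bind R-spondins at the cell surface. Gpc3, the glypican lost in an overgrowth syndrome, rose from 25.7 ± 0.0577 CPM in MEFs to 337 ± 21.3 after carbidopa, 336 ± 14.7 after LY-364947 and 165 ± 8.44 after CHIR-99021. The other named members fell in all treatments. The log2 fold changes were -1.41, -1.53 and -0.64 for Gpc1, -1.44, -1.23 and -0.87 for the syndecan Sdc3, and -0.64, -0.43 and -1.07 for Gpc4, in the order carbidopa, LY-364947 and CHIR-99021. The Gpc4 call after LY-364947 was lost without MEF replicate 2 (-0.41) or LY-364947 replicate 1 (-0.40) and with library totals alone (-0.20). Of the 9 tested genes of the list, 2 were higher in each treatment and 5, 5 and 6 were lower.

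Inside the cell, Iqgap1, a scaffold that binds LGR4, fell by 1.68, 1.49 and 0.88 on the log2 scale, and Axin1, the scaffold of the complex that destroys beta-catenin, rose by 0.79, 0.67 and 1.00. The Axin1 call after LY-364947 was lost without MEF replicate 2 (0.59) or LY-364947 replicate 2 (0.52). Gsk3b, which encodes the kinase inhibited by CHIR-99021, was called lower after carbidopa (-0.52), a call lost without MEF replicate 2 (-0.46) and with library totals alone (-0.27). That value was -0.73 without carbidopa replicate 2 and -0.34 without replicate 1. Its values of -0.24 after LY-364947 and -0.32 after CHIR-99021 both passed without either carbidopa library and with only the compared groups, and the latter also with DESeq2 (-0.35). Tnks2, a tankyrase that turns over axin, was called lower after CHIR-99021 (-0.31), which was lost without any 1 of the MEF, CHIR-99021 and LY-364947 libraries (-0.37 to -0.25), with no filter (-0.29), with the replicate block (-0.31) and with library totals alone (-0.098). Its values were -0.27 after carbidopa, which passed with RLE and without carbidopa replicate 2, and -0.25 after LY-364947, which passed with only the compared groups and without either carbidopa library. Of the 12 genes of this list, 1 was higher and 3 lower after carbidopa, 1 and 1 after LY-364947, and 2 and 2 after CHIR-99021.

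Among nuclear factors, Tcf7 rose from 0.518 CPM in MEFs to 2.65 after carbidopa, 3.26 after LY-364947 and 4.42 after CHIR-99021. It had 7 and 8 reads in MEFs and passed the filter only through the treated libraries, where it is high. Its calls thus follow in part from the filter, and nothing is read from them. The corepressor Tle3 rose by 0.65, 0.79 and 0.97 on the log2 scale. Tcf7l2 (-0.81 and -0.54) and the coactivator Bcl9l (-0.78 and -0.64) were called lower after carbidopa and LY-364947 and had values of -0.27 and -0.24 after CHIR-99021, which passed with only the compared groups (-0.28 and -0.25) and without either carbidopa library (-0.26 and -0.23). The Tcf7l2 call after LY-364947 was lost without LY-364947 replicate 2 (-0.46). Of the 12 genes tested, 2 were higher and 3 lower after carbidopa, 2 and 5 after LY-364947, and 3 and 3 after CHIR-99021. Lef1, chosen for mention after its values were seen, was higher after CHIR-99021 (4.19 ± 0.391 against 1.31 ± 0.0339 CPM in MEFs, log2 fold change 1.67, adjusted p = 0.00269, edgeR), while its values after carbidopa (-0.13) and LY-364947 (-0.68) were not called.

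The list of feedback and target genes had 15 tested genes of 19, and Fgf20 had no read in any library. After carbidopa 5 were higher and 8 lower, after LY-364947 5 and 6, and after CHIR-99021 3 and 6. Dkk1 and Wif1 passed the filter only through the MEF libraries, and Ascl2 and Tnfrsf19 only through treated libraries. They are named for this limit. Any calls of these genes in the counts follow in part from the filter, and nothing is read from them. Dkk2, a secreted Wnt modulator that binds LRP, fell from 174 ± 13.8 CPM in MEFs to 5.57 ± 0.102 after carbidopa, 5.75 ± 0.908 after LY-364947 and 4.13 ± 0.554 after CHIR-99021. Frzb, a secreted Wnt antagonist, rose by 2.31, 2.25 and 1.84 on the log2 scale and Nkd2 fell by 2.11, 2.01 and 1.56. Sfrp1, another antagonist, was called higher after carbidopa (1.65) and LY-364947 (1.71) and had a value of 0.32 after CHIR-99021, which passed without either carbidopa library (0.32), with only the compared groups (0.30), with no filter (0.34) and with library totals alone (0.53). The difference of Sfrp1 between CHIR-99021 and carbidopa was -1.34 (adjusted p = 0.000132, edgeR) and between CHIR-99021 and LY-364947 -1.39 (adjusted p = 0.000113). Axin2, the usual reporter of Wnt signalling and also chosen after its values were seen, was at 2.17 ± 0.608 CPM in MEFs and 1.88 ± 0.0513 after CHIR-99021 (log2 fold change -0.20, SE 0.31), and was called against MEF in no treatment.

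**Figure D5:**
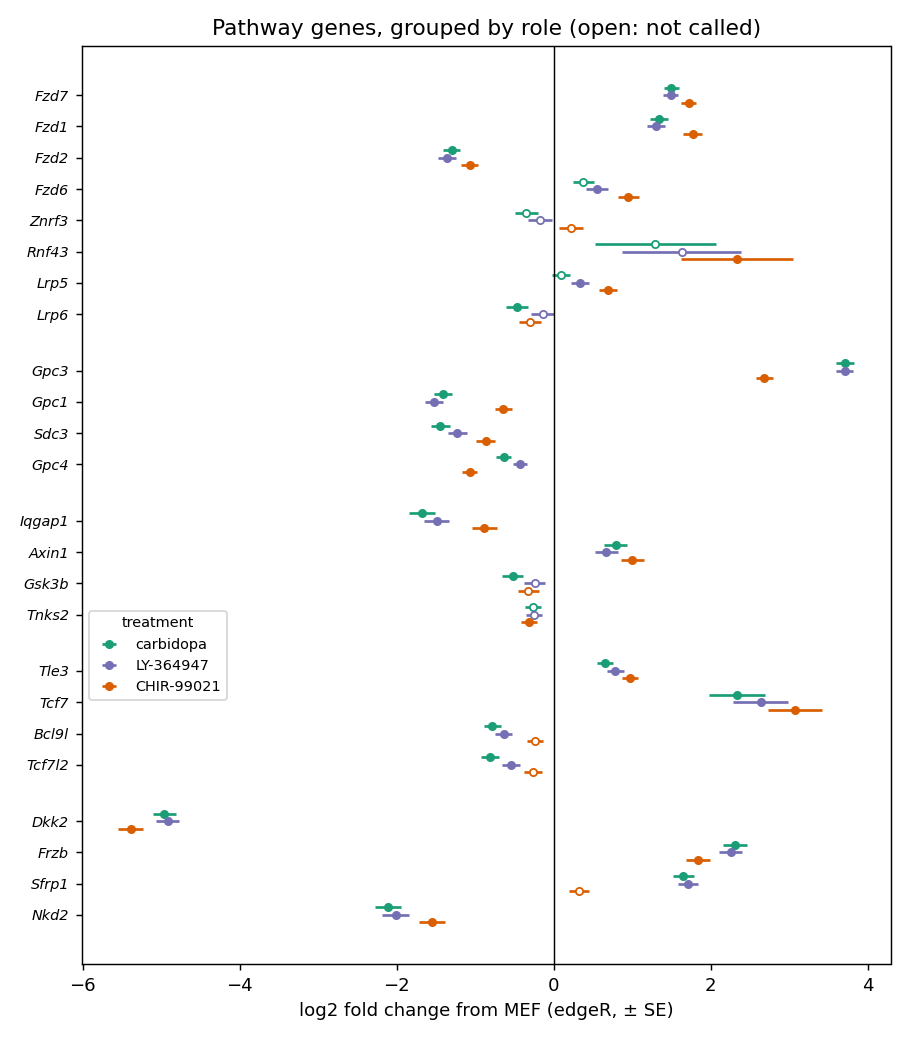
Log2 fold change from MEF (horizontal axis, edgeR estimate ± SE) of the named pathway genes, grouped from top to bottom as receptor complex and ligases, heparan sulfate partners, signal relay, nuclear factors, and feedback and target genes. Filled points passed the adjusted p threshold, and Dkk2 lies between -5.39 and -4.92, Gpc3 between 2.68 and 3.71 and Tcf7 between 2.34 and 3.08. The calls of Tcf7 and Rnf43 follow in part from the filter on low counts.

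The structurally related glycoprotein hormone and relaxin receptors were mostly below the filter on low counts. Of 5 such genes, 1 was tested, Tshr, and Rxfp2 had no read in any library. Tshr was called higher after carbidopa (log2 fold change 0.63, adjusted p = 0.0459, edgeR) and LY-364947 (0.66, adjusted p = 0.0451). Both calls were lost with DESeq2, with no filter and with the replicate block. They were also lost without any 1 of the MEF, CHIR-99021 or LY-364947 libraries (0.47 to 0.81). The carbidopa call was further lost with RLE (0.60), with only the compared groups (0.62) and without carbidopa replicate 1 (0.57).

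The genes with the most similar pattern to each member were found by the root mean square difference of log2 CPM, each gene centred on its own mean over the 8 libraries. It is not scaled to how much a member varies, so it is not compared between members. For Lgr4 these were Pgm5 (0.123) and Mtss1l (0.142), and for Lgr5 C1qtnf3 (0.777) and Eln (0.860), the gene of elastin. For Lgr6, Fzd7 (0.152), one of the Frizzled genes described above, was among them. For Rspo2 they were Arhgap30 (0.202) and Msr1 (0.235), a scavenger receptor of macrophages. For Rspo3 they were Mr1 (0.0257) and Cpped1 (0.0411), and for Rspo4 Gabra3 (0.263) and Bmp2 (0.287).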

How the data were processed

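RNA of 8 libraries, 2 from each of 4 groups of MEFs, was sequenced as paired reads. The authors aligned them to mm10 with STAR 2.4.2a, per the labels, and counted reads per gene with featureCounts. The annotation release and strand setting are not given in the sources used here, and the labels and the methods name different library kits. The authors deposited raw counts per gene, whole numbers without normalization. Groups and replicate numbers were taken from the labels. Reads carry no molecular identifiers, so counting intervals cover counting error only.

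Counts were analysed in R 4.3.3 with edgeR 4.0.16 (TMM, filterByExpr with a minimum count of 10, quasi-likelihood test) in a single fit over the 8 libraries with group as its term. Of 50578 genes, 15154 (30.0%) were tested, p-values were adjusted over all of them (Benjamini-Hochberg) and the threshold was 0.05. The common biological coefficient of variation was 11.0%. The procedure was tested on simulated data. DESeq2 1.42.0, other scalings, filters, a replicate block and leaving out each library were tried as alternatives. Pooled ratios have exact 95% intervals. The replicates of every pair differed by more than sampling noise, so each was counted as its own library.

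The members, gene lists and tests were chosen with earlier results of these data known. Every member is named, with Znrf3, Rnf43, Lrp5, Lrp6, the 4 genes of smallest p against MEF in each pathway list, the 2 nearest patterns to each tested member (log2 CPM with a prior count of 2), and of each marker list the genes at 0 in all libraries and the 2 most abundant. Genes named outside this rule are marked, and 1 gene that the rule names is not reported here. Positions are from GENCODE M21 for mm10, in which 99.6% of identifiers matched, and per-length levels use its exon bases. Of the 75-base words in member exons, 0.327% for Lgr5 and 10.7% for Rspo3 occurred in another gene. Figures were drawn with matplotlib 3.10.9.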

Additional observations from a re-analysis of the deposited data

How the results depend on the processing

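The changes of Lgr4, Lgr5 and Lgr6 from MEF kept their direction and call under every alternative that tested the gene. Requiring 10 counts in every library left 3 members and 2 calls against MEF with each compound, and 0 for CHIR-99021 against carbidopa or LY-364947. With DESeq2, 3 members were called for carbidopa, 3 for LY-364947, and 1 for CHIR-99021 against LY-364947, Rspo4 having an adjusted p of NA in the first and last of these. That last count was also 1 with no filter, with only the compared groups, and with the replicate block. Over all genes, fitting only the compared groups gave 1027 calls for CHIR-99021 against carbidopa, 3673 against LY-364947, and 0 for LY-364947 against carbidopa (1367 at an unadjusted p under 0.05 in the fit of all groups), where DESeq2 gave 15 and no filter 329.

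With library totals alone as the scaling, the all-gene median log2 fold change became 0.29 for carbidopa, 0.25 for LY-364947 and 0.26 for CHIR-99021. The calls higher and lower then became 5542 and 1956 (2732 and 2985 with TMM), 4232 and 1814 (2081 and 2613), and 5115 and 2217 (2835 and 3043). Uncalled values that changed sign were Rspo3 with carbidopa (-0.0064 with DESeq2, -0.016 with RLE), and Znrf3 (0.053) and Lrp6 (0.083) with LY-364947 under library totals alone.

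Leaving out each library in turn gave 3 to 5 members called for carbidopa, 3 to 5 for LY-364947 and 4 for CHIR-99021 against MEF, 0 to 2 for CHIR-99021 against carbidopa, 0 to 2 against LY-364947, and 0 for LY-364947 against carbidopa. Over all genes it gave 3142 to 7996 calls for carbidopa, 2841 to 6519 for LY-364947 and 3433 to 7800 for CHIR-99021 against MEF, 715 to 4632 for CHIR-99021 against carbidopa, 663 to 4228 against LY-364947, and 2 to 3816 for LY-364947 against carbidopa. The 3816 calls came without carbidopa replicate 2. A lone library was assumed to vary like the other groups. Uncalled log2 differences that changed sign ranged, for CHIR-99021 against LY-364947, from -0.21 to 0.14 (Lgr4), -0.50 to 0.63 (Lgr5) and -0.093 to 0.29 (Lgr6), for CHIR-99021 against carbidopa from -0.11 to 0.89 (Lgr5) and -0.035 to 0.53 (Lgr6), and for LY-364947 against carbidopa from -0.15 to 0.77 (Lgr5), -0.14 to 0.42 (Lgr6), -0.17 to 0.14 (Rspo2) and -0.10 to 0.70 (Rspo4). Against MEF they ranged from -0.024 to 0.054 (Rspo3) and -0.00034 to 0.19 (Lrp5) with carbidopa and -0.0038 to 0.31 (Tshr) with CHIR-99021.

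Libraries share replicate numbers, but nothing says what a number marks, and deviations of same-numbered libraries correlated between -0.16 and 0.13. With the replicate block, members called stayed at 5, 5, 4, 1 and 0, and Rspo4 was lost for CHIR-99021 against LY-364947 (1 of 2 calls left). Crossing the LY-364947 numbers, chosen after seeing the data, gave 3029 genes for CHIR-99021 against LY-364947 and 2 for LY-364947 against carbidopa. The causes of these changes were not tested. Depth limits Rspo1, Rspo4 and, with CHIR-99021, Rspo2.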
